A study of Homo sapiens with 9 samples.

Results

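Mitochondrial ribosomal protein genes encode the protein part of the ribosome inside mitochondria. Members were the protein-coding genes whose symbol is MRPL or MRPS, for the large or small subunit, followed by a number and at most 1 letter. The rule found 78 of the 58735 genes in the count table, 49 for the large subunit and 29 for the small subunit. All 78 had enough counts to be tested, with 16 to 5343 counts per gene and library.

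The mitochondrial ribosome translates the few mRNAs encoded by mitochondrial DNA, all for membrane subunits of the respiratory chain and ATP synthase. Its RNAs are made inside the organelle, whereas every one of its proteins is encoded in the nucleus, translated in the cytosol and imported, so that building it needs both genomes. The large subunit joins amino acids into protein and holds the exit tunnel, and the small subunit reads the mRNA. Part of the proteins descend from the bacterial ribosome and the others were added in mitochondria.

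RNA-seq was carried out on OVCAR4 cells, an established human cell line of high-grade serous ovarian cancer. Cells carrying a scramble shRNA vector (scr control, listed as wild type) were compared with cells carrying either of 2 shRNAs against MPZL3, an immunoglobulin-domain membrane protein that has also been placed at mitochondria. Each of the 3 groups had 3 biological replicates, and all 9 libraries came from whole cultures, not clones, that had been transduced with lentivirus and kept in puromycin for 3 days. The replicates are called biological, but whether each was a separate transduction is not given in the sources used here, so p-values measure the spread between these cultures. The comparisons ask how the mRNAs of the mitochondrial ribosome stood when MPZL3 was knocked down with each shRNA.

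Libraries held 15040102 to 27835841 counts in genes. MPZL3 itself had 403 to 648 counts in scr control libraries, 130 to 144 under shMPZL3 #1 and 281 to 375 under shMPZL3 #2, so the groups did not overlap, and the log2 fold change was -2.17 ± 0.16 and -0.89 ± 0.15 (SE, adjusted p = 3.73e-07 and 0.000562, edgeR). KRT7, KRT8, PAX8, EPCAM and MUC16 were abundant in every library, and the 9 epithelial and serous carcinoma markers summed to 5124 to 6334 CPM (counts scaled to library size), although WT1 had at most 13 counts. Of 9 markers of other cell types, which summed to 11.5 to 14.2 CPM in scr control, 13.6 to 21.8 under shMPZL3 #1 and 20.1 to 25.7 under shMPZL3 #2, DCN was at 0 in all libraries, and CD3E and CD68 had at most 4 counts. LUM and MYH11 were called higher under shMPZL3 #1 and LUM under shMPZL3 #2, among the 5 genes of that list with enough counts to be tested.

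The share of all gene counts that fell in the 78 members was 0.383% to 0.403% in scr control. It was 0.346%, 0.303% and 0.304% in replicates 1, 2 and 3 of shMPZL3 #1, and 0.351% to 0.368% under shMPZL3 #2. All 6 knockdown libraries were therefore below all 3 control libraries, and replicate 1 of shMPZL3 #1 lay apart from the other two of its group. In the same 3 libraries the median deviation of 16 proliferation genes from the control mean was -0.41, -0.63 and -0.82 on the log2 scale, again smallest in replicate 1, and the part of proliferation in the member values was not tested. These are shares of mRNA in bulk cultures, in which fewer cells of a kind and less RNA per cell cannot be told apart.

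Per kilobase of exon, the members were abundant mRNAs. Their median level in scr control was 16.1 CPM per kb, against 3.28 over all 16928 genes tested, and 74 of the 78 stood above the latter. MRPL15, MRPL3 and MRPL51, all of the large subunit, had the highest levels at 103 ± 3.59, 92.0 ± 6.76 and 81.9 ± 3.78 CPM per kb (SD, n = 3). The lowest levels were those of MRPL38 at 0.367 ± 0.111, MRPL46 at 0.754 ± 0.107 and MRPS24 at 1.23 ± 0.151 CPM per kb. Control libraries did not overlap between neighbors in either trio. Lengths here are all exon bases of a gene. With the length of the longest principal transcript instead, chosen after seeing the data, MRPL3 was highest at 146 CPM per kb and MRPL38 stayed lowest at 0.713. Exons of other genes share 41.1% of the exon bases of MRPL38, 11.3% of MRPL46, 23.2% of MRPS24 and 31.3% of MRPL51. Whether shared exons lowered the counts of these genes was not tested.

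Promoter windows of 69 members were found in RefSeq (GRCh38.p14), 85 windows in all because some genes have several starts, each running from 250 bases before the start to 50 after it. In them the ETS motif CCGGAAG, searched on both strands like all others here, was present in 38.8% of member windows, in 15.9% of 15730 windows of tested protein-coding genes and in 10.3% of all 35116 windows. The YY1 core AGATGGC was in 29.4% of member windows against 6.62% and 5.41%. For the NRF1 core GCATGCG the shares were 8.24%, 5.3% and 3.91%. CACGTG (E-box) was in 10.6%, 9.17% and 7.26%, GGGCGG (GC box) in 60.0%, 65.3% and 45.0%, CCAAT in 32.9%, 34.1% and 34.6%, and TATAAA in 3.53%, 6.33% and 11.5%. ETS and YY1 letters thus had the largest excess over tested protein-coding genes among the 7 motifs searched.

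The 4 windows shown are those of MRPL3, MRPL30 and MRPL19, whose mRNAs were lower with both shRNAs, and of MRPL52, whose mRNA was higher under shMPZL3 #2. None of the 4 was picked independently of its values. MRPL13, which had the largest fall under shMPZL3 #1, is not shown. Each is printed 5′ to 3′ on the strand of its gene. Capitals mark matches to the NRF1, ETS or YY1 letters on either strand.
MRPL3, chr3:131502922-131503221, minus strand: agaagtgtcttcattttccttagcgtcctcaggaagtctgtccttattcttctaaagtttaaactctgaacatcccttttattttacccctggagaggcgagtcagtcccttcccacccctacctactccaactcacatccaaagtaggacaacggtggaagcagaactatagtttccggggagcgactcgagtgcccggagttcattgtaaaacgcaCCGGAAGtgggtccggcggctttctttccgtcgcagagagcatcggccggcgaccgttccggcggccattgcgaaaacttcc
MRPL30, chr2:99180934-99181233, plus strand: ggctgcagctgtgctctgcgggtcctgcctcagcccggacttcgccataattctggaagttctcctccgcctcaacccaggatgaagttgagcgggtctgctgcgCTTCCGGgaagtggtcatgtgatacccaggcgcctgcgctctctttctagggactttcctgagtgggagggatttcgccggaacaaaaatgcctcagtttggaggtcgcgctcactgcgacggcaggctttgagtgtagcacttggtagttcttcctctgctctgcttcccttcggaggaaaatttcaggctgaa
MRPL19, chr2:75646533-75646832, plus strand: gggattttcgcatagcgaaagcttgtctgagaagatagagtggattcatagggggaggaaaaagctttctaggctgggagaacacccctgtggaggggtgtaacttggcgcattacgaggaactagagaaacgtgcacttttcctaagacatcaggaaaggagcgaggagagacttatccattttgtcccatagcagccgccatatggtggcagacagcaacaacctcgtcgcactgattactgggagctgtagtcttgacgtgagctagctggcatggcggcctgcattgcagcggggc
MRPL52, chr14:22829637-22829936, plus strand: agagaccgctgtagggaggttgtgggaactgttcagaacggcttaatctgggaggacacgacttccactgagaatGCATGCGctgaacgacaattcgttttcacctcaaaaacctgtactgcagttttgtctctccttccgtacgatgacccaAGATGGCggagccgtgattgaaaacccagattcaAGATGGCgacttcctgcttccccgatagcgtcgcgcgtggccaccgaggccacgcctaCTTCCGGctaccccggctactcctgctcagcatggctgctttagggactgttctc

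MRPL3 had an ETS match that begins 32 bases before the start, and MRPL30 had an ETS match on the opposite strand at 145 bases before it. In MRPL52 an NRF1 match stood 175 bases before the start, YY1 matches at 97 and 63 bases before it and an ETS match on the opposite strand at 5 bases before it. None of these letters occurred in the MRPL19 window. Among the 42 windows of members called lower under shMPZL3 #1 the ETS letters were in 31.0% and the YY1 letters in 35.7%, and among the 43 windows of the other members in 46.5% and 23.3%. A match describes the sequence and is no evidence of a bound site.

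Under shMPZL3 #1, mRNAs of the mitochondrial ribosome were broadly lower. Of the 78 members, 35 fell (adjusted p under 0.05, edgeR's quasi-likelihood test over all genes) and none rose, whereas 15.3% of all tested genes were called lower and 16.8% higher. No member was higher even at an unadjusted p under 0.05, where the count was 0, and DESeq2 called 38 lower and 0 higher. The median log2 fold change was -0.32 over the members and 0.01 over all genes. In 47 members every shMPZL3 #1 library lay below every control library, against 22.8% of all genes, and 72 members had a value below 0, against 49.2%.

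The fall under shMPZL3 #1 was called in 26 of 49 large subunit members and in 9 of 29 small subunit members. The median log2 fold change was -0.36 for the large subunit and -0.23 for the small subunit. Counting by structure rather than symbol, a choice made after seeing the data, puts MRPS18A and MRPS30 in the large subunit and MRPS36 in neither, and then 26 of 51 and 9 of 26 were called. Whether the subunits differ was not tested. The count over all members was 20 without scr control replicate 1, 22 without scr control replicate 2 and 22 without shMPZL3 #1 replicate 3, where 10.2%, 10.9% and 9.68% of all genes were called lower.

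**Figure D1:**
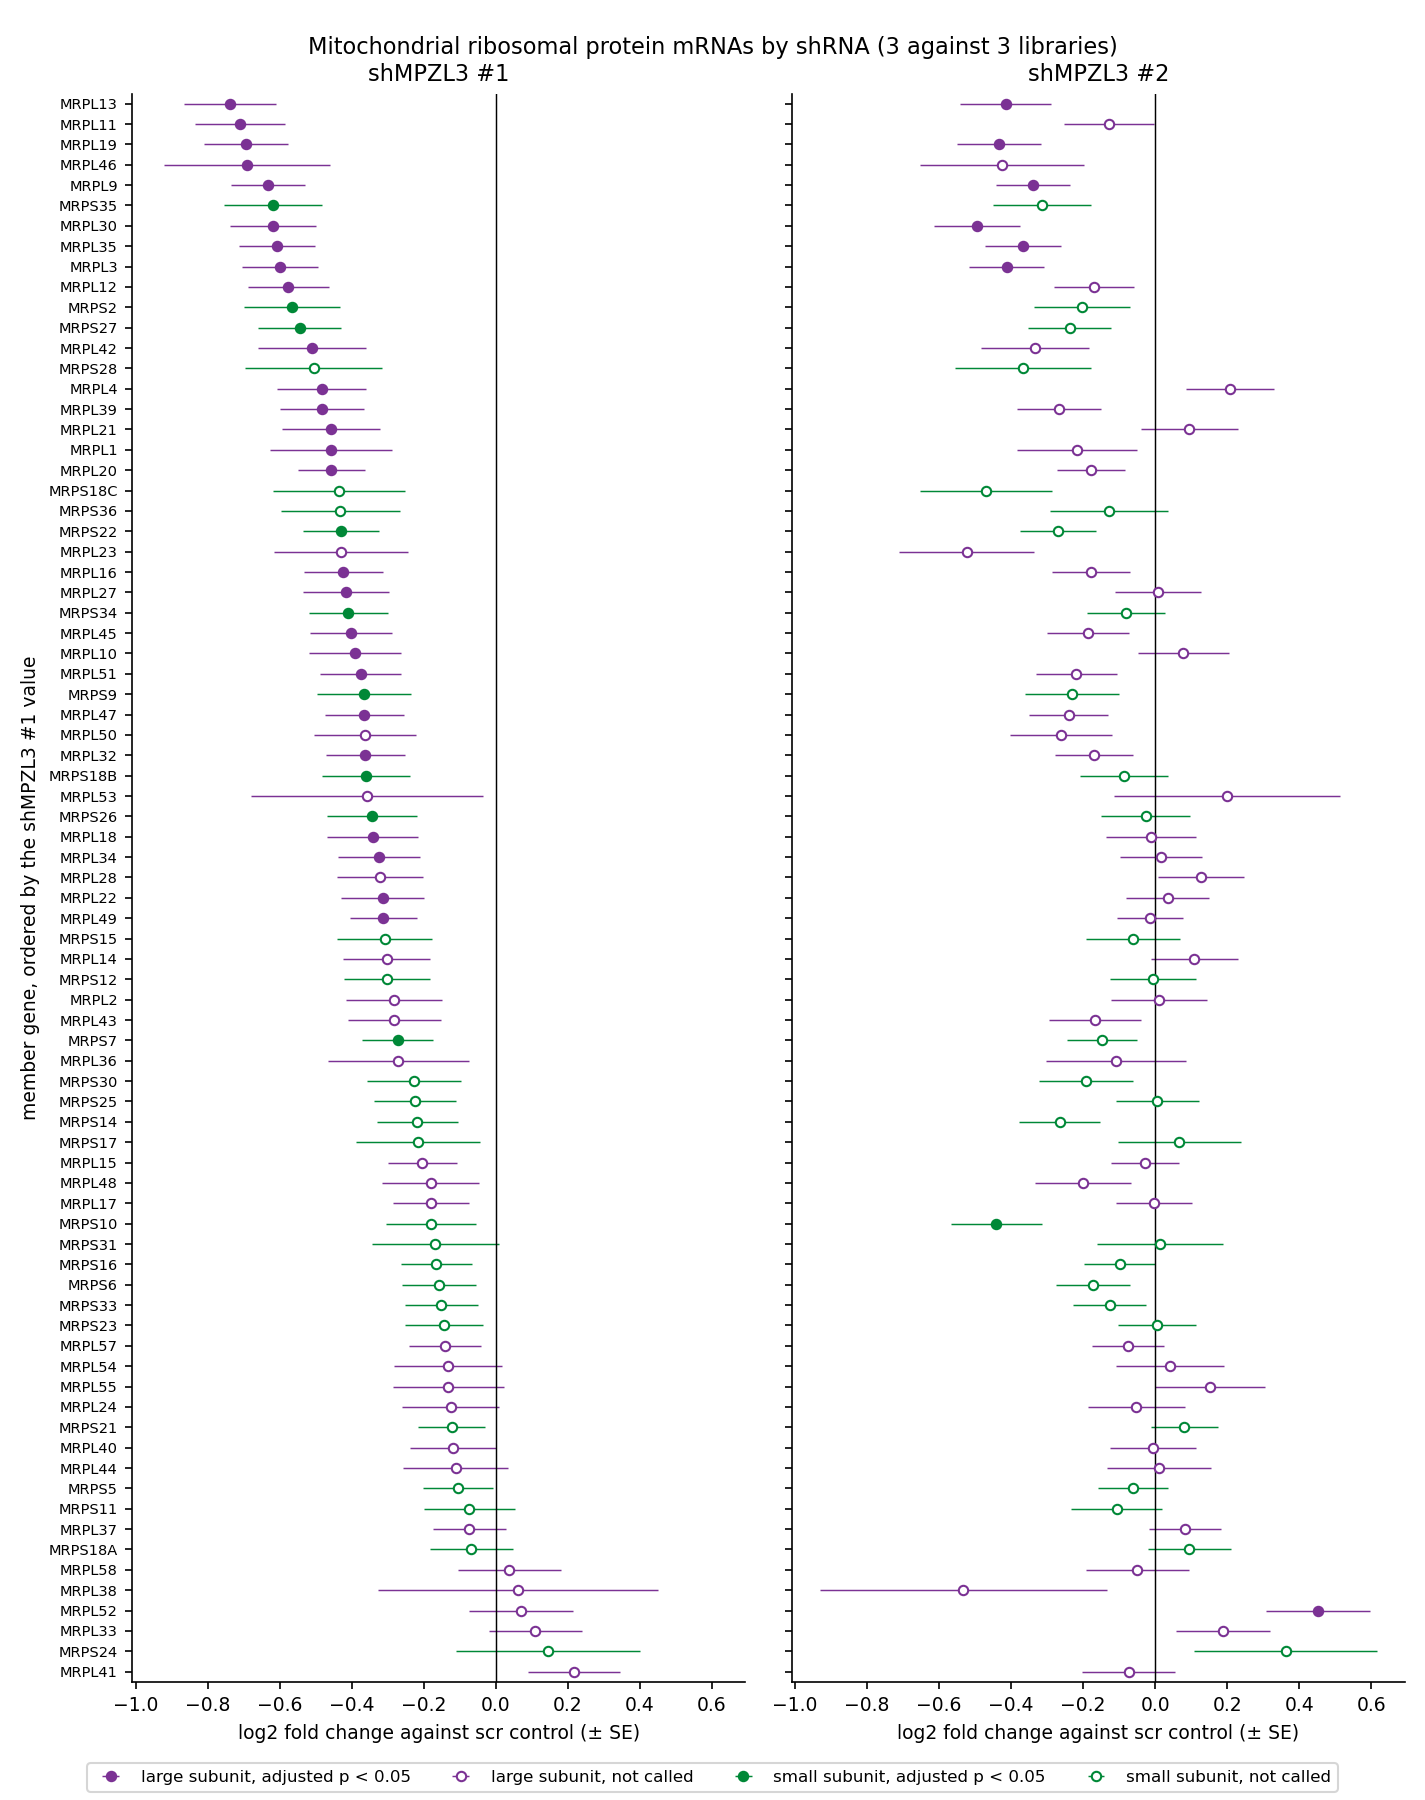
Log2 fold change of each of the 78 members against scr control (± SE) under shMPZL3 #1 (left) and shMPZL3 #2 (right), in the same order; color gives the subunit and filled points are called at adjusted p under 0.05. Filled points on the left, 35 in all, are all below 0, and on the right 7 are below 0 and MRPL52 is above it. Both panels use the same control libraries.

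Summed levels were lower with each shRNA. Large subunit members together had 2504 ± 71.3 CPM in scr control, 1978 ± 189 under shMPZL3 #1 and 2316 ± 57.4 under shMPZL3 #2 (SD, n = 3). For small subunit members the sums were 1429.8 ± 18.7, 1175 ± 129 and 1315 ± 22.0 CPM. The 3 groups did not overlap in either subunit except that the highest shMPZL3 #1 library reached 1324 CPM for the small subunit, inside the shMPZL3 #2 range of 1296 to 1339. Large over small, the ratio was 1.75 ± 0.036 in scr control, 1.69 ± 0.045 under shMPZL3 #1 and 1.76 ± 0.017 under shMPZL3 #2, and the ranges of shMPZL3 #1 and scr control overlapped.

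**Figure D2:**
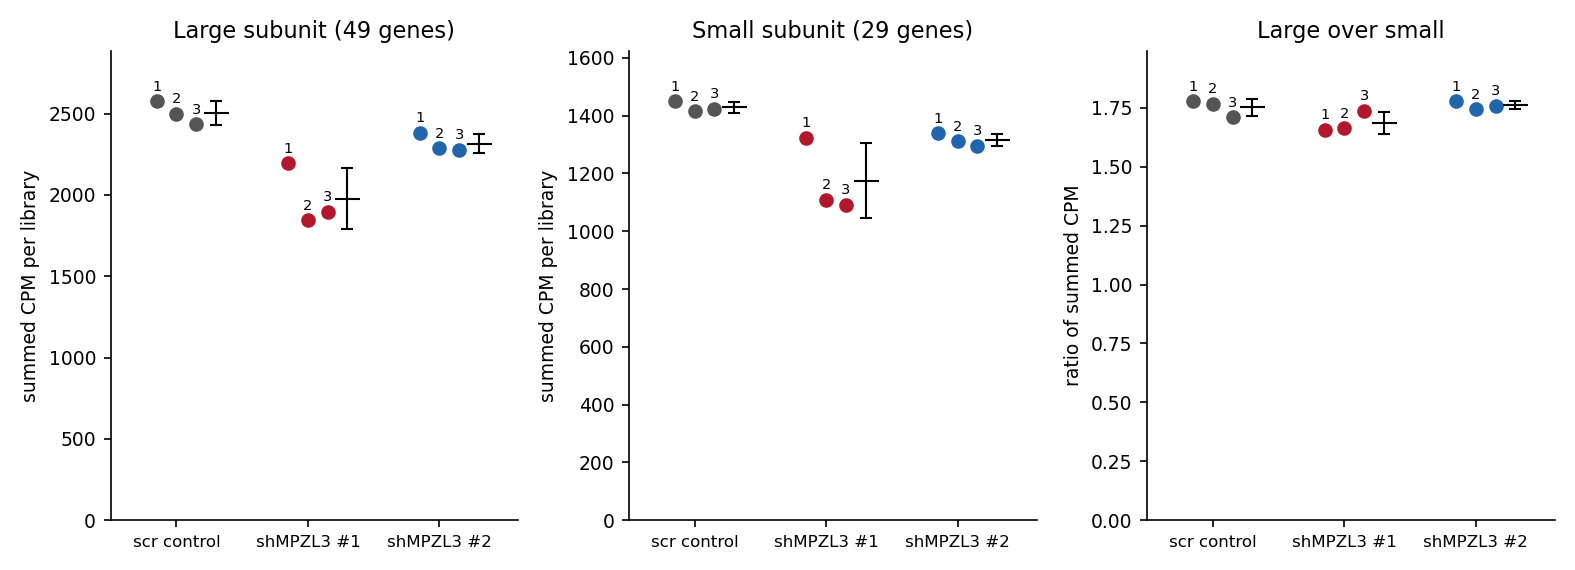
Summed CPM of large subunit members (left), of small subunit members (middle) and their ratio (right) in each of 9 libraries; numbers are replicates, and the bar beside each group is the mean ± SD (n = 3). Both sums are below all controls in all 6 knockdown libraries, while the ratio stays between 1.66 and 1.78.

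MRPL3, MRPL9, MRPL13, MRPL19, MRPL30 and MRPL35 were the 6 members called lower with each shRNA. All belong to the large subunit and have a bacterial counterpart. They are 17.1% of the 35 members lower under shMPZL3 #1 and 85.7% of the 7 lower under shMPZL3 #2, and both comparisons use the same 3 control libraries. The same overlap was not counted over all genes, so these shares have no baseline and are not read as a trait of the members. Counts below are scaled to the mean effective library size (normalized counts).

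MRPL3 (ENSG00000114686, hg38 chr3:131462212-131502983) encodes a core protein near the site where peptide bonds form. It had 5543, 5039.6 and 4806 normalized counts in scr control replicates 1 to 3, 3573, 3653 and 2930.0 under shMPZL3 #1, and 3829, 4097 and 3636 under shMPZL3 #2. Every knockdown library was below every control library, and the shRNA groups overlapped each other. The log2 fold change was -0.60 ± 0.11 (SE, adjusted p = 0.000423, edgeR) under shMPZL3 #1 and -0.41 ± 0.11 (adjusted p = 0.0132) under shMPZL3 #2. MRPL30 (ENSG00000185414, chr2:99181079-99197626) is another protein with a bacterial counterpart. Its normalized counts were 1007, 916 and 868 in scr control, 652, 655 and 511 under shMPZL3 #1, and 627, 640.1 and 711 under shMPZL3 #2. The controls were again above all 6 knockdown libraries, and the log2 fold changes of -0.62 ± 0.12 and -0.50 ± 0.12 (adjusted p = 0.000933 and 0.0097, edgeR) were close to each other.

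MRPL19 (ENSG00000115364, chr2:75646783-75690851) encodes a protein at the interface with the small subunit. It had 1340.3, 1370.5 and 1246 normalized counts in scr control, 933, 813 and 699.9 under shMPZL3 #1, and 942, 1090.5 and 898 under shMPZL3 #2. No knockdown library reached the controls, with log2 fold changes of -0.69 ± 0.12 and -0.43 ± 0.12 (adjusted p = 0.000319 and 0.0183, edgeR). MRPL9 (ENSG00000143436, chr1:151759643-151763564) stood at 999, 987 and 980.3 normalized counts in scr control, 702, 575 and 635 under shMPZL3 #1, and 780, 781 and 785 under shMPZL3 #2. Here the 3 groups were fully apart from one another, at -0.63 ± 0.10 and -0.34 ± 0.10 (adjusted p = 0.000245 and 0.0347, edgeR). Exons of OAZ3 share 38.5% of the exon bases of MRPL9, and OAZ3 had 218 counts over all libraries against 7111 for MRPL9.

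MRPL35 (ENSG00000132313, chr2:86199355-86213794) had 1554, 1504 and 1399.6 normalized counts in scr control, 1058, 981 and 884 under shMPZL3 #1, and 1065, 1277 and 1117 under shMPZL3 #2. All knockdown values were below all control values, and the log2 fold changes were -0.61 ± 0.11 and -0.37 ± 0.11 (adjusted p = 0.000403 and 0.0263, edgeR). MRPL13 (ENSG00000172172, chromosome 8) had the lowest fold of any member under shMPZL3 #1. Its normalized counts were 795, 752 and 745 in scr control, 466, 454 and 453 under shMPZL3 #1, and 525, 692 and 504 under shMPZL3 #2. Replicate 2 of shMPZL3 #2 lay near the controls and the other two near shMPZL3 #1. The log2 fold changes were -0.74 ± 0.13 and -0.42 ± 0.13 (adjusted p = 0.000362 and 0.0341, edgeR).

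**Figure D3:**
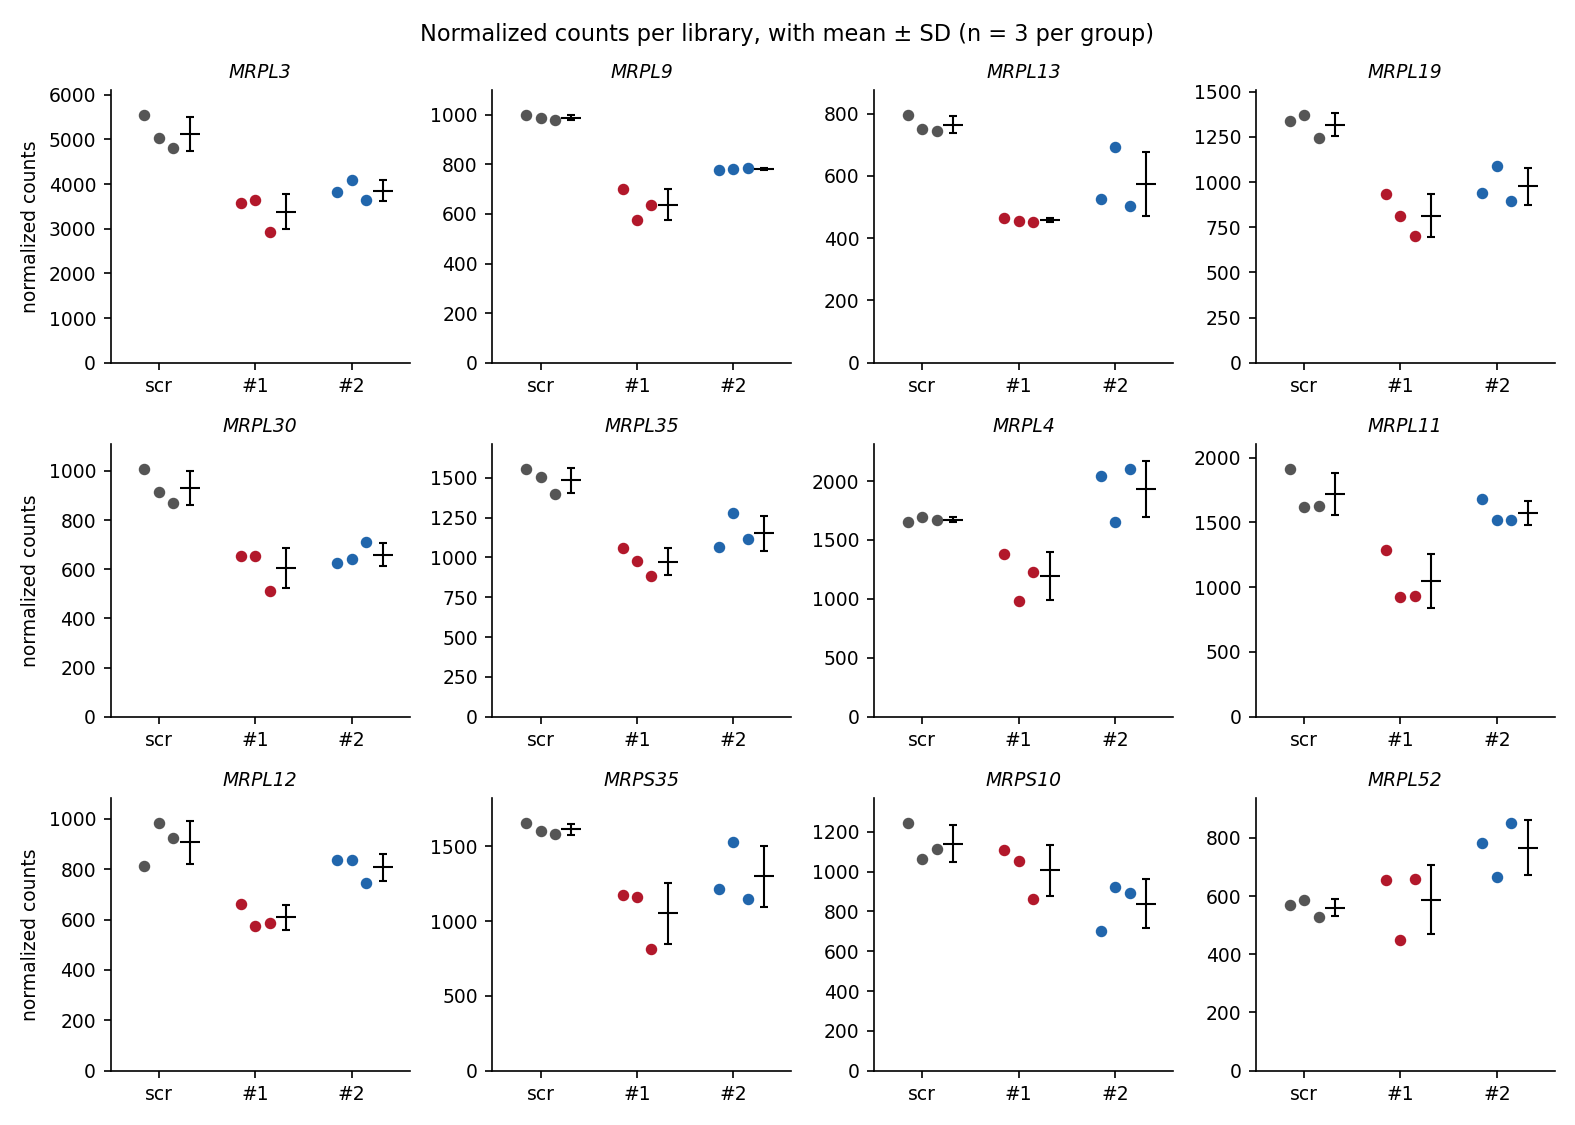
Normalized counts per library of 12 members in scr control (scr), shMPZL3 #1 (#1) and shMPZL3 #2 (#2), with the group mean ± SD (n = 3) beside the points; each axis starts at 0. In the first 6 panels all knockdown points lie below all control points, in MRPL4, MRPL11 and MRPL12 all shMPZL3 #1 points lie below all others, and in MRPL52 the shMPZL3 #2 points lie above all others.

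Over all members, shMPZL3 #2 gave a smaller and less uniform change. Of the 78, 7 fell and 1 rose, where 5.8% of all genes were called lower and 9.36% higher. DESeq2 called 8 lower and 1 higher. The median log2 fold change was -0.10 over the members and 0.00 over all genes, -0.08 for the large subunit, with 6 of 49 lower, and -0.11 for the small subunit, with 1 of 29 lower. All shMPZL3 #2 libraries were below all controls in 24 members, against 17.6% of all genes, and 55 values were below 0, against 49.6%.

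Leaving out any of 5 libraries lowered the calls under shMPZL3 #2, among the members and over all genes alike. The count of members lower was 0 without scr control replicate 1 (edgeR, 9 at an unadjusted p under 0.05), 3 without scr control replicate 2 and 4 without scr control replicate 3, where 2.77%, 2.86% and 3.64% of all genes were called lower. It was 2 without shMPZL3 #2 replicate 1 and 1 without shMPZL3 #2 replicate 3, against 3.46% and 2.02% of all genes. With a correction for gene length it was 11, and the share of all genes was 8%.

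MRPS10 and MRPL52 were called under shMPZL3 #2 and not under shMPZL3 #1. MRPS10 (ENSG00000048544, chr6:42206801-42217865), a protein of the small subunit head, had 1243, 1065 and 1115 normalized counts in scr control, 1108, 1051 and 861 under shMPZL3 #1, and 699 to 925 under shMPZL3 #2. The shMPZL3 #2 libraries were below all controls, whereas those of shMPZL3 #1 overlapped them, at -0.44 ± 0.13 (adjusted p = 0.0259, edgeR) and -0.18 ± 0.13 (adjusted p = 0.298). MRPL52 (ENSG00000172590, chr14:22829879-22835037), a large subunit protein without a bacterial counterpart, had 568, 585 and 527 normalized counts in scr control, 656, 450.1 and 657 under shMPZL3 #1, and 782, 664 and 850.0 under shMPZL3 #2. It was higher in 3 of 3 shMPZL3 #2 libraries (0.45 ± 0.14, adjusted p = 0.0431, edgeR) and mixed under shMPZL3 #1 (0.07 ± 0.14, adjusted p = 0.749). The call of MRPL52 was lost with the gene length correction (0.38, adjusted p = 0.0752, range 0.0112 to 0.174 over 17 alternatives) and without any of the 3 controls or of shMPZL3 #2 replicates 1 and 3. Direct differences between the shRNAs were not called for either gene (adjusted p = 0.178 for MRPS10 and 0.0815 for MRPL52, edgeR).

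Both shRNAs taken as a single knockdown condition, 6 libraries against 3, gave 9 members lower and 0 higher, where 6.4% of all genes were called lower and 9.36% higher. At an unadjusted p under 0.05 the counts were 29 and 0, and DESeq2 called 13 and 0. The 9 were the 6 genes above with MRPL39 (-0.37 ± 0.12, adjusted p = 0.0439, edgeR), MRPS35 (-0.46 ± 0.14, adjusted p = 0.0456) and MRPS22 (-0.35 ± 0.10, adjusted p = 0.0367), proteins that have no bacterial counterpart. In 16 members all 6 knockdown libraries were below all controls, against 11.0% of all genes. The exact permutation test of the difference in mean log2 CPM (two-sided) gave p = 0.0119, the smallest it can give, for 8 of the 16 and up to 0.0714 for the others. These 16 were chosen by that separation, which by itself makes p small, so the test adds no support. The median log2 fold change was -0.18 over the members and 0.02 over all genes. Without scr control replicate 1 the count was 0 (edgeR, 16 at an unadjusted p under 0.05) and without scr control replicate 2 it was 2, where 0.978% and 1.58% of all genes were called lower. It was 15 without shMPZL3 #2 replicate 2 and 24 with the gene length correction, where those shares were 8.25% and 9.94%.

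Direct comparison of the shRNAs, which uses no control level, called 10 members higher under shMPZL3 #2 than under shMPZL3 #1 and 0 lower, where 7.56% of all genes were called in each direction. At an unadjusted p under 0.05 the counts were 28 and 1, and DESeq2 called 13 and 0. All 10 were large subunit members, but 8 of the 28 at the unadjusted cut and 1 of the 13 from DESeq2 were of the small subunit. With the replicate block, small subunit members such as MRPS2 and MRPS34 were called too. The median log2 difference was 0.22 for the large subunit and 0.16 for the small subunit, against 0.01 over all genes. In 24 members every shMPZL3 #2 library was above every shMPZL3 #1 library, against 15.4% of all genes. The 10 included 3 proteins of the stalk that recruits translation factors, MRPL10, MRPL11 and MRPL12, and 2 whose bacterial counterparts line the exit tunnel, MRPL4 and MRPL22.

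MRPL4 (ENSG00000105364, chr19:10251901-10260045) had 1653, 1692 and 1669 normalized counts in scr control, 1379.5, 979 and 1228 under shMPZL3 #1, and 2039, 1656 and 2099.9 under shMPZL3 #2. Its shMPZL3 #1 libraries were below all others, and 2 of 3 shMPZL3 #2 libraries were above all controls. The log2 difference between shRNAs was 0.69 ± 0.12 (adjusted p = 0.00122, edgeR), made of -0.48 ± 0.12 (adjusted p = 0.00667) and 0.21 ± 0.12 (adjusted p = 0.274) against scr control. MRPL11 (ENSG00000174547, chr11:66435075-66466738) had 1909, 1620.4 and 1625 normalized counts in scr control, 1289, 926 and 933 under shMPZL3 #1, and 1678, 1515 and 1521 under shMPZL3 #2. Control and shMPZL3 #2 overlapped while shMPZL3 #1 was below both, with a difference between shRNAs of 0.58 ± 0.12 (adjusted p = 0.00492, edgeR) and -0.71 ± 0.13 (adjusted p = 0.000459) for shMPZL3 #1 against scr control.

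MRPL12 (ENSG00000262814, chr17:81703357-81707526), which is also known for binding the mitochondrial RNA polymerase, had 814, 983 and 924 normalized counts in scr control, 664, 575 and 586 under shMPZL3 #1, and 838, 837 and 746 under shMPZL3 #2. Only its shMPZL3 #1 libraries were apart from the controls (-0.58 ± 0.11, adjusted p = 0.000933, edgeR), and they were below shMPZL3 #2 by 0.41 ± 0.11 (adjusted p = 0.0207). Another gene, AC139530.2, shares 68.2% of the exon bases of MRPL12 on the same strand. It had 0 counts over all libraries against 6896 for MRPL12. The count of members higher under shMPZL3 #2 than under shMPZL3 #1 moved with single libraries. That count was 18 without shMPZL3 #1 replicate 1, 3 without its replicate 2 and 4 without its replicate 3. In those fits 8.67%, 5.21% and 4.51% of all genes were called higher. It was 3 without shMPZL3 #2 replicate 1 and 4 without its replicate 3, against 4.21% and 3.81%.

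Further members called under shMPZL3 #1 belong to both subunits. MRPS35, a small subunit protein added in mitochondria, had 1655, 1603 and 1585 normalized counts in scr control, 1177, 1162 and 816 under shMPZL3 #1 and 1216, 1533 and 1151 under shMPZL3 #2. All knockdown libraries were below the controls, at -0.62 ± 0.14 (adjusted p = 0.00241, edgeR) and -0.31 ± 0.14 (adjusted p = 0.129). MRPL46, among the least abundant members, had 89.6 to 116 normalized counts in scr control and 59.5 to 63.6 under shMPZL3 #1 (-0.69 ± 0.23, adjusted p = 0.0307). MRPL51, among the most abundant, had 2469 to 2679 and 1697 to 2302 (-0.38 ± 0.11, adjusted p = 0.0171, edgeR). High and low expression thus both occurred among the called genes.

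Members were also split by origin, a grouping by symbol number made after the values were seen. Under shMPZL3 #1, where 15.3% of all genes were called lower, 23 of 44 members with a bacterial counterpart and 12 of 34 without were lower. Among large subunit members the counts were 19 of 28 and 7 of 21, with median log2 fold changes of -0.42 and -0.18. Among small subunit members they were 4 of 16 and 5 of 13, with medians of -0.22 and -0.34. The order of the groups was thus opposite in the subunits, on small counts, and the difference was not tested.

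Of the 3 genes for S18-type proteins, 1 was called. MRPS18B fell under shMPZL3 #1, from 1016 to 1072 normalized counts in scr control to 707 to 992 (-0.36 ± 0.12, adjusted p = 0.0328, edgeR), a call lost in 6 of 17 alternatives (adjusted p = 0.0011 to 0.125). MRPS18A had 571 to 598 normalized counts in scr control, 511 to 625 under shMPZL3 #1 and 586 to 670.4 under shMPZL3 #2, and its groups overlapped. MRPS18C had 331 to 389 normalized counts in scr control, 228 to 298 under shMPZL3 #1 and 209 to 345 under shMPZL3 #2, with log2 fold changes of -0.44 ± 0.18 and -0.47 ± 0.18 that were not called (adjusted p = 0.0794 and 0.0951, edgeR). Exons of neighbors share 47.0% of the exon bases of MRPS18A and 40.2% of those of MRPS18C.

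Members with a role outside translation by the intact ribosome were mixed. MRPL58, a peptidyl-tRNA hydrolase that rescues stalled ribosomes, had 254 to 294 normalized counts in scr control, 249 to 309 under shMPZL3 #1 and 240.4 to 278 under shMPZL3 #2, and its groups overlapped. MRPS36, better known as a component of the 2-oxoglutarate dehydrogenase complex, had 331 to 424 in scr control and 241 to 316 under shMPZL3 #1 (-0.43 ± 0.17, adjusted p = 0.0553, edgeR). MRPL38 and MRPS24, at 21.3 to 37.1 and 58.5 to 74.5 normalized counts in scr control, were too sparse for more than wide intervals, with SEs of 0.39 and 0.26 for shMPZL3 #1.

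Around the ribosome, lists of nuclear genes for mitochondrial gene expression had unequal shares of calls under shMPZL3 #1, where 15.3% of all genes were called lower. Of 29 factors for ribosome assembly and rRNA maturation, 10 fell (34.5%) and 1 rose. They included C1QBP, a matrix protein needed for mitochondrial translation (-0.72 ± 0.13, adjusted p = 0.000459, edgeR), MRM1 (-0.82 ± 0.26) and MTG1 (-0.67 ± 0.23), while NGRN rose (0.47 ± 0.14). Of 20 genes for charging mitochondrial tRNAs, 11 fell (55%), LARS2 (-0.67 ± 0.14) among them. Of 14 translation and membrane insertion factors 2 fell (14.3%, near the share of all genes), the elongation factor GFM1 (-0.51 ± 0.12) and the recycling factor MRRF (-0.50 ± 0.11), and of 5 mitoribosomal proteins with other names 1 fell, PTCD3 (-0.35 ± 0.11), while 2 had values above 0.

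Under shMPZL3 #2, where 5.8% of all genes were called lower, these lists had few calls. GFM1 was lower again (-0.49 ± 0.12, adjusted p = 0.00992, edgeR), from 3279 to 3642 normalized counts in scr control to 2227 to 2699, as was WARS2 (-0.88 ± 0.17). The assembly list had 0 calls in either direction (edgeR, 2 lower and 0 higher at an unadjusted p under 0.05, and 0 with DESeq2). Its median log2 fold change was -0.06 under shMPZL3 #2 and -0.27 under shMPZL3 #1.

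Regulators of mitochondrial transcription and biogenesis had calls with both shRNAs. Of 14, 8 fell under shMPZL3 #1 (57.1%, against 15.3% of all genes). Under shMPZL3 #2, 4 fell (28.6%, against 5.8%) and 1 rose (7.14%, against 9.36%). PPARGC1A, the coactivator of mitochondrial biogenesis, had 377 to 484 normalized counts in scr control, 179.7 to 283 under shMPZL3 #1 and 194 to 260.2 under shMPZL3 #2. TFAM, which packages mitochondrial DNA and acts in its transcription, had 1841 to 1968, 1059 to 1374 and 1160.1 to 1675. Neither gene's knockdown libraries overlapped the controls, and the log2 fold changes were -0.94 ± 0.18 and -0.82 ± 0.18 for PPARGC1A and -0.61 ± 0.13 and -0.49 ± 0.13 for TFAM.

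NRF1, the transcription factor whose core motif was searched above, was also lower with both (-0.45 ± 0.13 and -0.41 ± 0.13, adjusted p = 0.0138 and 0.0412, edgeR), as was TFB2M, the mitochondrial transcription initiation factor (-0.59 ± 0.11 and -0.40 ± 0.11). MYC, a transcription factor of growth, went in opposite directions. It had 1278 to 1459 normalized counts in scr control, 925 to 1109.5 under shMPZL3 #1 and 1772 to 2105 under shMPZL3 #2. The 3 groups did not overlap, and the difference between the shRNAs was 0.91 ± 0.11 (adjusted p = 3.79e-05, edgeR).

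Among the mRNAs that the mitochondrial ribosome translates, calls under shMPZL3 #1 were for higher levels. Of 13 mitochondrially encoded mRNAs, 7 rose (53.8%, against 16.8% of all genes) and 0 fell (edgeR, 8 and 0 at an unadjusted p under 0.05, and 8 and 0 with DESeq2). The median of their log2 fold changes was 0.32, and 2 were below 0, down to -0.45. Under shMPZL3 #2, 1 rose (7.69%, against 9.36% of all genes) and 0 fell (3 and 0 unadjusted, 1 and 0 with DESeq2), with a median of 0.15 and 3 below 0. MT-ND1, a complex I subunit, had 36874 to 38094 normalized counts in scr control, 49397 to 64451 under shMPZL3 #1 and 37588 to 50505 under shMPZL3 #2 (0.63 ± 0.12, adjusted p = 0.000683, for shMPZL3 #1). MT-CO2, a complex IV subunit, was higher with both (0.44 ± 0.10 and 0.40 ± 0.10, adjusted p = 0.00219 and 0.00966). These mRNAs are not strand-resolved here, and nuclear copies of mitochondrial DNA can share reads with them.

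**Figure D4:**
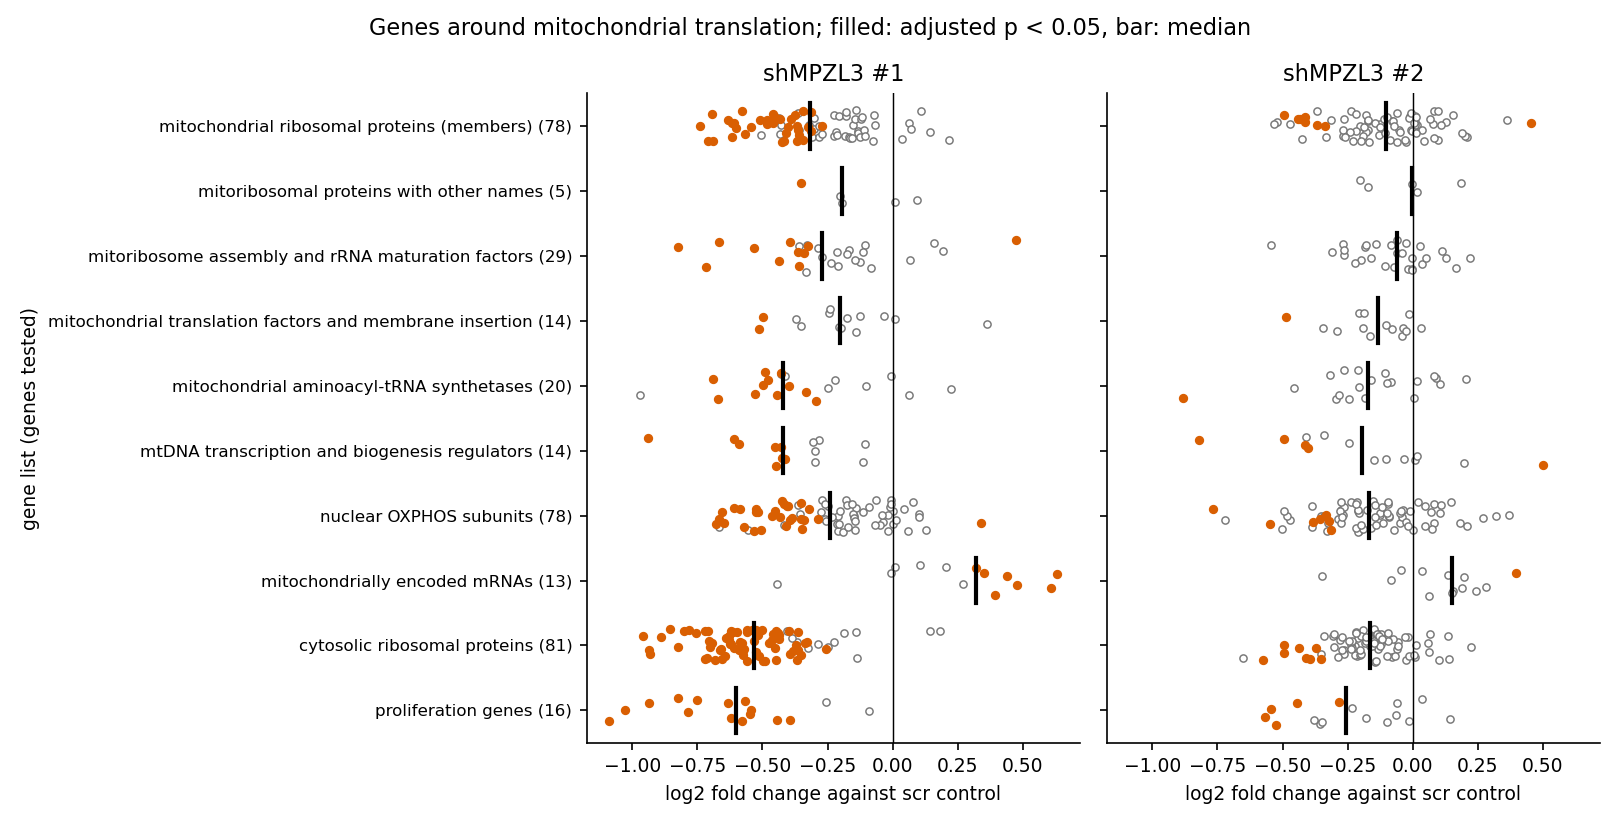
Log2 fold change against scr control of the members and of 9 lists of related genes under shMPZL3 #1 (left) and shMPZL3 #2 (right); each point is a gene, filled where adjusted p is under 0.05, and the bar is the list median. Under shMPZL3 #1 the medians of nuclear lists are between -0.60 and -0.19 and that of the mitochondrially encoded mRNAs is 0.32.

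Lower mRNA levels were also seen outside the mitochondrial ribosome. Called lower were 15.3% of all genes under shMPZL3 #1 and 5.8% under shMPZL3 #2. Of 81 cytosolic ribosomal protein genes tested, 69 fell under shMPZL3 #1 (85.2%, median log2 fold change -0.53) and 8 under shMPZL3 #2 (9.88%, median -0.16). Of 78 nuclear genes for respiratory chain and ATP synthase subunits, 28 fell (35.9%) and 1 rose under shMPZL3 #1 (median -0.24), and 7 fell under shMPZL3 #2 (8.97%, median -0.17). Of 16 proliferation genes, 14 fell under shMPZL3 #1 (87.5%), among them CCNB1 (-1.09 ± 0.14) and TOP2A (-0.94 ± 0.13), and 5 fell under shMPZL3 #2 (31.2%). Their part in the member values was not tested.

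Pseudogenes took few counts. All 75 annotated pseudogenes of the members held 0.0748% to 0.148% as many counts as the members in a library. Of the members, 26 share over 10% of their exon bases with another gene. Without them, a choice made after seeing the data, 24 of 52 were lower under shMPZL3 #1 and 5 under shMPZL3 #2. Over all genes these shares were 15.3% and 5.8%.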

How the data were processed

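Poly-A RNA of 9 OVCAR4 cultures was sequenced without strand information. The authors aligned reads with HISAT2 (2.0.5) and counted them per gene with featureCounts (1.5.0-p3) on hg38, per the submitters' processing notes, and the deposited values are raw whole-number counts of 58735 genes. Columns were matched to samples by the names in the labels. Counts were tested with edgeR (4.0.16, R 4.3.3) quasi-likelihood fits after its default filter on low counts and TMM scaling, which left 16928 genes. The 3 groups shared a fit for each shRNA and for their difference, and the pooled knockdown had a 2-group fit, as the study grouped both shRNAs. Tests were two-sided with Benjamini-Hochberg adjustment over all tested genes, and calls use 0.05. The study used DESeq2, here an alternative (1.42.0). Further alternatives were other scalings and filters, leaving out each library, a replicate block and a correction of each library's trend with gene length. Exact permutation tests of 3 against 3 libraries cannot give p below 0.1. Exon overlaps came from GENCODE release 29, and promoter windows from RefSeq.

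Members and lists were chosen with earlier results of these data known. Named were all members called in a direction when there were 8 or fewer, otherwise the 8 with the largest fold change, the S18 genes, MRPL12, MRPL58, MRPS36 and the 3 highest and 3 lowest by level, and up to 4 called genes per list and direction. The naming of MRPS22, MRPL22 and MRPL49, which this rule leaves out, came after seeing their values. A simulation of shMPZL3 #1 against scr control changed 200 genes, and 16536 genes were run with 3 libraries a group. The fit called 2 of 66 genes changed 1.25-fold, 25 of 67 changed 1.5-fold and 50 of 67 changed 2-fold. In the data 15.3% of all genes were called lower and 16.8% higher, which makes the adjustment less strict there. The simulated shares are therefore not the sensitivity of the reported test.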

Additional observations from a re-analysis of the deposited data

Results flagged for a closer look

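In 10 of 78 members the change with shMPZL3 #2 differed from that with shMPZL3 #1 by a test of the difference itself (edgeR, 3 against 3 libraries, adjusted p under 0.05). Each time the higher level was in shMPZL3 #2, where 7.56% of all genes were called higher. The log2 differences, shMPZL3 #2 minus shMPZL3 #1, were 0.69 for MRPL4, 0.58 for MRPL11, 0.55 for MRPL21 and 0.47 for MRPL10. They were 0.45 for MRPL28, 0.42 for MRPL27, 0.41 for MRPL14 and 0.41 for MRPL12. The smallest were 0.35 for MRPL22 and 0.30 for MRPL49 (adjusted p = 0.0495 and 0.0368, edgeR). MRPL21 had 530 to 662 normalized counts with shMPZL3 #1 and 742 to 946 with shMPZL3 #2. MRPL28 had 599 to 780 and 805 to 978, so neither gene's groups overlapped. MRPL4 and MRPL11 kept the call in all 17 alternatives, whereas MRPL22 lost it in 12 and MRPL49 in 9 of them, and the other 6 lost it in 1 to 4.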

How the results depend on the processing

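No result changed direction. In the shMPZL3 #1 comparison 35 members were lower, and leaving out a library in turn gave 20 to 41 lower and 0 to 1 higher. For shMPZL3 #2 those ranges were 0 to 10 lower and 0 to 1 higher, with medians of -0.153 to -0.083 for all members, -0.158 to -0.055 for the large and -0.146 to -0.082 for the small subunit. They were 0 to 15 lower for the pooled knockdown, and 3 to 18 higher and 0 to 1 lower between the shRNAs. The shares of all genes called lower moved too, and were 9.68% to 16.1% for shMPZL3 #1, 2.02% to 7.89% for shMPZL3 #2 and 0.978% to 8.25% for the pooled knockdown. Between the shRNAs, 3.81% to 8.67% of all genes were called higher. Other settings moved the shMPZL3 #1 count as well. It was 28 with upper-quartile scaling (13.7% of all genes) and 28 with at least 10 counts in every library (16.2%). It was 46 with the replicate block (18.3%), 47 with the gene length correction (19.3%) and 52 with both of these (22.8%). With the gene length correction, shMPZL3 #2 gave 11 lower (8% of all genes) and 0 higher (edgeR, 1 at an unadjusted p under 0.05). Its medians were -0.19 for all, -0.18 for large and -0.19 for small subunit members. The pooled knockdown gave 24 lower (9.94% of all genes) with medians of -0.26 for all members and -0.27 for the large subunit. Medians over all genes moved down too. They went from 0.0034 to -0.043 for shMPZL3 #2 and from 0.015 to -0.039 for the pooled knockdown.

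Deviations from the group mean had correlations of -0.00143 to 0.218 between samples with the same replicate number. Between samples with different numbers they were -0.147 to 0.0671. Whether the number marks a pairing is not settled by these values, and the main fit has no replicate block. With the replicate block, shMPZL3 #2 gave 12 lower, and 22 members were higher than with shMPZL3 #1, where the shares of all genes rose to 9.43% and 11.9%. With the replicate block and the length correction together, shMPZL3 #2 gave 16 lower (12.7% of all genes) and medians of -0.19 for all, -0.19 for large and -0.19 for small subunit members. That fit gave 18 lower in the pooled knockdown (8.88% of all genes) with medians of -0.27 for all members and -0.26 for the large subunit. It gave 20 higher and 1 lower between the shRNAs (13% and 9.56% of all genes). Its medians over all genes were -0.047 for shMPZL3 #2 and -0.044 for the pooled knockdown. The log2 ratio of large to small sums was 0.81, 0.75 and 0.82 in scr control, shMPZL3 #1 and shMPZL3 #2. By mean log2 CPM, another quantity by construction, it was -0.042, -0.097 and -0.033. By structure, an assignment chosen after seeing the data, it was 0.93, 0.88 and 0.94. The cause of changes under the length correction and the block was not tested.

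Of the named calls, 11 with shMPZL3 #1 held in all 17 alternatives, MRPL3, MRPL4, MRPL9, MRPL11, MRPL12, MRPL13, MRPL19, MRPL30, MRPL35, MRPL39 and MRPS35. Outside the naming rule, the shMPZL3 #1 calls of MRPL20, MRPS2, MRPS22, MRPS27 and MRPS34 held in all 17 as well. Every named call with shMPZL3 #2 and in the pooled knockdown was lost in at least 1 alternative.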
